A study of Mus musculus with 6 samples.

Results

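Rab GTPases, the small membrane-bound switches that direct vesicle traffic, were followed in mouse embryonic fibroblasts starved for 6 h. Members were taken by name from the array annotation, as every gene whose symbol is Rab with a number and at most a letter and a further digit. This gave 50 genes, carried by 95 probe sets, of 12393 genes and 20380 probe sets with a single annotated gene. Their classes (secretory, endosomal, autophagy-linked and others) came from textbook roles.

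Both groups were wild-type embryonic fibroblasts, the connective tissue cells that grow out of mouse embryos in culture. Each group was measured on 3 short-oligonucleotide arrays with 1 RNA sample per array. The median SD of a Rab over the arrays of a group was 0.058 in control and 0.086 in starved cells. The control group stayed in normal medium and the starved group was deprived for 6 h. The labels leave unstated what was taken out of the medium, the mouse strain and the age of the embryos. Arrays of a group are titled biological replicates with no word on separate cultures, so p-values reflect only how far these samples differ, a spread that could be technical. Values below are log2 array signals, in which a step of 1 is a doubling, and differences are starved minus control with their SE. The test was limma's moderated test on all 6 arrays, adjusted by Benjamini-Hochberg over all 12393 genes, and a gene is said to rise, fall or be called only at an adjusted p below 0.05. In bulk RNA a lower signal from fewer cells of a type and one from less RNA per cell cannot be told apart.

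A Rab cycles between an inactive form bound to GDP and an active form bound to GTP. Exchange factors load GTP and set the membrane on which a Rab acts, GTPase-activating proteins end the active state, and effectors such as tethers and motor adaptors do the work at the membrane. A lipid tail added by Rab geranylgeranyl transferase anchors the protein, and GDP dissociation inhibitor carries it back through the cytosol. In fibroblasts these proteins run secretion from the endoplasmic reticulum through the Golgi, uptake and recycling through endosomes, and the delivery of autophagosomes to lysosomes.

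The mean signals of fibroblast markers ran from 4.80 for Thy1 to 14.09 for the collagen gene Col1a2. On the deposited scaling, where 22.1% of all genes rose and 22.0% fell, 6 of the 11 fibroblast markers rose, 2 fell and 3 did not pass, and the log2 of their summed signal lay between 16.03 and 16.07 in control and between 16.28 and 16.30 in starved arrays. Mean signals of markers of macrophages and blood, epithelium, endothelium, neurons and melanocytes ran from 2.85 for Snap25 to 7.52 for Cd14. Of these 32 markers 3 rose, namely the macrophage marker Cd68 (0.44), the epithelial cadherin Cdh1 (0.91) and the melanocyte factor Mitf (0.62), and 6 fell. On the same scale the summed signal of the melanocyte markers was 7.78 to 7.86 in control and 8.09 to 8.21 in starved arrays, that of the epithelial markers 7.52 to 7.69 and 7.41 to 7.55, and that of the neuronal markers 7.72 to 7.78 and 7.56 to 7.74. Of the 5 melanocyte markers Mitf alone was higher, while Dct (−0.31) and Tyrp1 (−0.32) fell and Tyr (−0.10) and Pmel (−0.15) did not pass. The macrophage and blood markers summed to 8.80 to 8.85 and 8.55 to 8.68, and the endothelial markers to 6.22 to 6.33 and 6.10 to 6.20. The part of these markers in the Rab results was not tested.

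On the deposited scaling the Rab family differed in both directions and by small steps, a balance that turned to lower with spike-in centring. Of the 50 genes 12 rose, 8 fell and 30 did not pass, so that 40% were called where 44.1% of all genes were. The rises made up 24% against 22.1% of all genes and the falls 16% against 22.0%. The extremes were Rab7b, a late endosomal Rab, at 0.77, and Rab23, a Rab known for restraining hedgehog signalling, at −0.74. Differences of at least 0.5 that passed the test were found in 5 Rabs (10%), against 18.3% of all genes, and the median size of a difference regardless of sign was 0.18 in the family and 0.20 over all genes. The median signed difference was −0.01 for the Rabs and −0.05 for all genes. The 3 starved arrays did not overlap the 3 control arrays in 31 Rabs (62%), against 54.0% of all genes.

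The number of falling Rabs was 4 without control replicate 2, where 2186 of all genes fell. The balance between rises and falls depended on the scaling, and spike-in transcripts were brighter in starved arrays. Centring on poly-A spike-ins subtracted 0.43 from every difference and centring on hybridization spike-ins 0.19, which put the median of all genes at −0.47 and −0.24. The count of Rabs was then 2 higher and 37 lower, or 4 higher and 25 lower, and it was 9 higher and 14 lower with each array centred on its median. Of all genes 6.94% were higher and 75.2% lower with poly-A centring, 13.5% and 49.2% with hybridization centring, and 19.8% and 27.5% with median centring. Each of these centrings subtracts a positive constant from all differences, so falls stay below 0 by construction. Of the 12 Rabs that rose, 9 lay below 0 with poly-A centring, 0 with hybridization centring and 0 with median centring. Directions below are those of the deposited scaling, and a value given "on poly-A" is the difference after that centring.

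**Figure D1:**
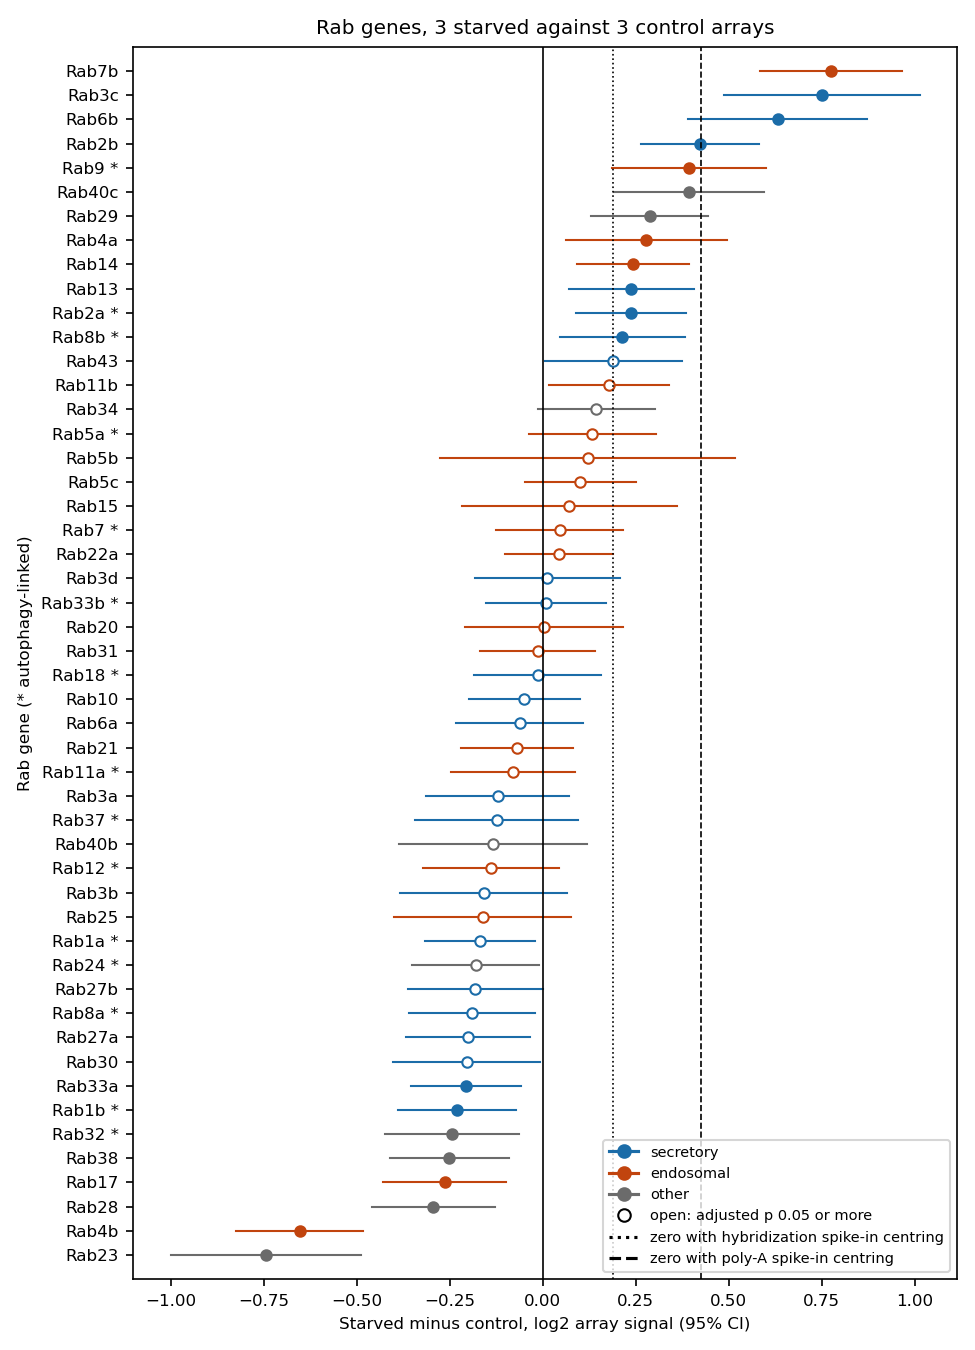
Starved minus control difference of each of the 50 Rab genes on the log2 scale (x axis), with its 95% confidence interval, from 3 arrays per group. Colours give the class, filled points passed the test, and the vertical lines mark where 0 would lie without spike-in centring (solid), with hybridization spike-ins (dotted, 0.19) and with poly-A spike-ins (dashed, 0.43); 9 of the 12 filled points on the right lie left of the dashed line.

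Among the secretory Rabs, 22 measured genes that work between the endoplasmic reticulum, the Golgi and the cell surface, 6 rose, 2 fell and 14 did not pass, with a median difference of −0.06. The share called was 36.4%, against 44.1% of all genes. On poly-A 1 was higher and 16 lower, against 6.94% and 75.2% of all genes. Rab3c, a Rab of regulated secretory vesicles, had signals of 3.40, 3.29 and 3.46 in controls and 4.42, 4.02 and 3.95 after starvation. Every starved array was above every control array, and the rise was 0.75, SE 0.12, adjusted p = 0.000553, 0.32 on poly-A. Its signal was near the dim end of the arrays, below the lower quartile of all genes at 4.57. Rab6b, the Golgi Rab best known from neurons, gave 5.21, 5.12 and 5.25 in the control arrays against 6.03, 5.86 and 5.58 in the starved ones. The rise of 0.63, SE 0.11, adjusted p = 0.000932 was also free of overlap, at 0.20 on poly-A, where it did not pass.

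Rab2b, which acts in traffic between the endoplasmic reticulum and the Golgi, gave 7.42, 7.29 and 7.43 in the control and 7.80, 7.85 and 7.77 in the starved arrays. The starved arrays lay close together and above all controls (0.42, SE 0.07, adjusted p = 0.000845), but the difference was −0.0032 on poly-A. Rab2a, its close relative, which also serves the fusion of autophagosomes with lysosomes, gave 11.04, 11.01 and 11.00 in controls and 11.24, 11.22 and 11.31 after starvation. The groups did not overlap (0.24, SE 0.07, adjusted p = 0.0157; −0.19 on poly-A), and the call was lost without control replicate 2 or 3 (adjusted p 0.0523 to 0.0561). The direction holds for the brightest probe set only, since all 6 others lay below 0 and their mean with it was −0.15. The other secretory rises were Rab13, a Rab of junctions and exocytosis (0.24, −0.19 on poly-A), and Rab8b, which carries cargo to the cell surface (0.21, −0.21 on poly-A). Rab13 lost its call without any single array other than starved replicate 3 (adjusted p 0.052 to 0.0909), and Rab8b without control replicate 1 or 2 or starved replicate 2 or 3 (adjusted p 0.0932 to 0.144).

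The secretory Rabs that fell did so by little. Rab1b, which sorts cargo from the endoplasmic reticulum to the Golgi, gave 9.37, 9.29 and 9.29 in the control arrays against 9.07, 9.17 and 9.03 in the starved ones. All starved values were lower (−0.23, SE 0.07, adjusted p = 0.0237), and the call was lost without any 1 of the control arrays or without starved replicate 3 (adjusted p 0.0524 to 0.0921). Rab33a, a Rab of secretory vesicles, gave 4.08, 4.09 and 4.12 in the control and 3.90, 3.84 and 3.92 in the starved arrays. It fell by 0.21 (SE 0.07, adjusted p = 0.0279) at signals near the dim end, and lost the call without any 1 of the control arrays or without starved replicate 2 (adjusted p 0.0717 to 0.0902). Rab1a, the other form of Rab1, did not pass; it gave 12.03, 12.04 and 12.07 in controls and 11.88, 11.84 and 11.93 after starvation. The starved arrays were all lower than the controls (−0.17, SE 0.07, adjusted p = 0.0636). This is 1 of 11 cases of separated groups among Rabs that did not pass. Groups were separate in 54.0% of all genes, and the share among all genes that did not pass was not computed.

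Rab8a, which acts in exocytosis and at the cilium, did not pass either, with 10.18, 10.21 and 10.03 in the control arrays against 10.003, 9.88 and 9.96 in the starved ones. Its groups were separate (−0.19, SE 0.08, adjusted p = 0.0649). The remaining 12 secretory Rabs that did not pass lay between −0.20 for Rab30 and 0.19 for Rab43. They included Rab10, Rab18, Rab6a and the secretory vesicle Rabs Rab3a, Rab3b, Rab3d, Rab27a, Rab27b and Rab37. Without control replicate 2 the secretory Rabs counted 3 rises, in place of 6. The falls were 0 without control replicate 1 or 2 and 1 without starved replicate 2 or 3.

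Among the 19 endosomal Rabs 4 rose, 2 fell and 13 did not pass. Their median difference was 0.045, and the share called was 31.6% against 44.1% of all genes. On poly-A 1 was higher and 14 lower, against 6.94% and 75.2% of all genes. Rab7b, which guides traffic from late endosomes to the trans-Golgi network, gave 7.46, 7.41 and 7.24 in the control and 8.14, 8.24 and 8.05 in the starved arrays. It had the largest rise of the family, 1.71-fold, with separate groups (0.77, SE 0.08, adjusted p = 5.32e-05), and was still higher on poly-A (0.35). Rab9, which returns receptors from late endosomes to the Golgi, gave 10.13, 10.09 and 10.33 in controls and 10.68, 10.44 and 10.61 after starvation. The rise of 0.39, SE 0.09, adjusted p = 0.00617 became −0.032 on poly-A.

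Rab4a and Rab4b, both Rabs of rapid recycling from early endosomes, went opposite ways, although Rab4a lay at −0.15 on poly-A. Rab4a gave 7.57, 7.56 and 7.58 in the control arrays against 8.04, 7.86 and 7.64 in the starved ones. The 3 control values lay close together while the starved values were spread (0.28, SE 0.10, adjusted p = 0.0409), and the call was lost without any single array other than starved replicate 3 (adjusted p 0.0829 to 0.114). Rab4b gave 8.84, 8.79 and 8.70 in the control and 8.23, 8.07 and 8.07 in the starved arrays. It fell 1.57-fold (−0.65, SE 0.08, adjusted p = 8.15e-05), the second largest fall of the family.

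Rab14, which links the trans-Golgi network with endosomes, rose by 0.24 (−0.18 on poly-A), from 11.80 ± 0.03 (SD, n = 3) to 12.04 ± 0.05 (SD, n = 3), and lost the call without control replicate 1 (adjusted p = 0.0598). Rab17, an epithelial Rab of recycling and transcytosis, gave 5.13, 5.22 and 5.11 in controls and 4.82, 4.98 and 4.86 after starvation. It fell (−0.26, SE 0.07, adjusted p = 0.0157) at a low signal, and lost the call without control replicate 2 (adjusted p = 0.0673). Counts for the class were 2 rises without control replicate 1 and 1 fall without control replicate 2.

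The 3 forms of Rab5, which drive fusion of early endosomes, did not pass. Rab5a gave 10.94, 10.99 and 11.06 in the control arrays against 11.08, 11.07 and 11.24 in the starved ones. Rab5c gave 9.97, 9.92 and 10.03 in the control and 10.08, 10.09 and 10.05 in the starved arrays. In both the starved arrays lay just above the controls (0.13, SE 0.08, adjusted p = 0.189 for Rab5a and 0.10, SE 0.07, adjusted p = 0.254 for Rab5c), with 95% confidence intervals of −0.038 to 0.30 and −0.049 to 0.25. Rab5b gave 6.35, 6.51 and 6.51 in controls and 6.08, 6.73 and 6.92 after starvation. Its starved arrays lay on both sides of the controls (0.12, SE 0.18, adjusted p = 0.615; 95% CI −0.28 to 0.52).

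Rab7, the Rab of late endosomes, lysosomes and autophagosome fusion, gave 11.28, 11.28 and 11.29 in the control arrays against 11.45, 11.32 and 11.22 in the starved ones. The controls were nearly identical and the starved arrays lay on both sides of them (0.045, SE 0.08, adjusted p = 0.666; 95% CI −0.13 to 0.22). This holds for the brightest probe set, while the second fell (−0.30) and the mean of both was −0.13. Rab11a, the Rab of recycling endosomes, gave 10.40, 10.28 and 10.35 in the control and 10.33, 10.17 and 10.29 in the starved arrays. Its groups overlapped (−0.08, SE 0.07, adjusted p = 0.41; 95% CI −0.25 to 0.086), a result that holds for the brightest of its probe sets. Rab12, which sends the transferrin receptor to lysosomes, gave 9.71, 9.63 and 9.67 in controls and 9.39, 9.53 and 9.66 after starvation, with overlap between the groups (−0.14, SE 0.08, adjusted p = 0.193). The other 7 endosomal Rabs that did not pass, Rab11b, Rab15, Rab20, Rab21, Rab22a, Rab25 and Rab31, lay between −0.16 and 0.18.

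**Figure D2:**
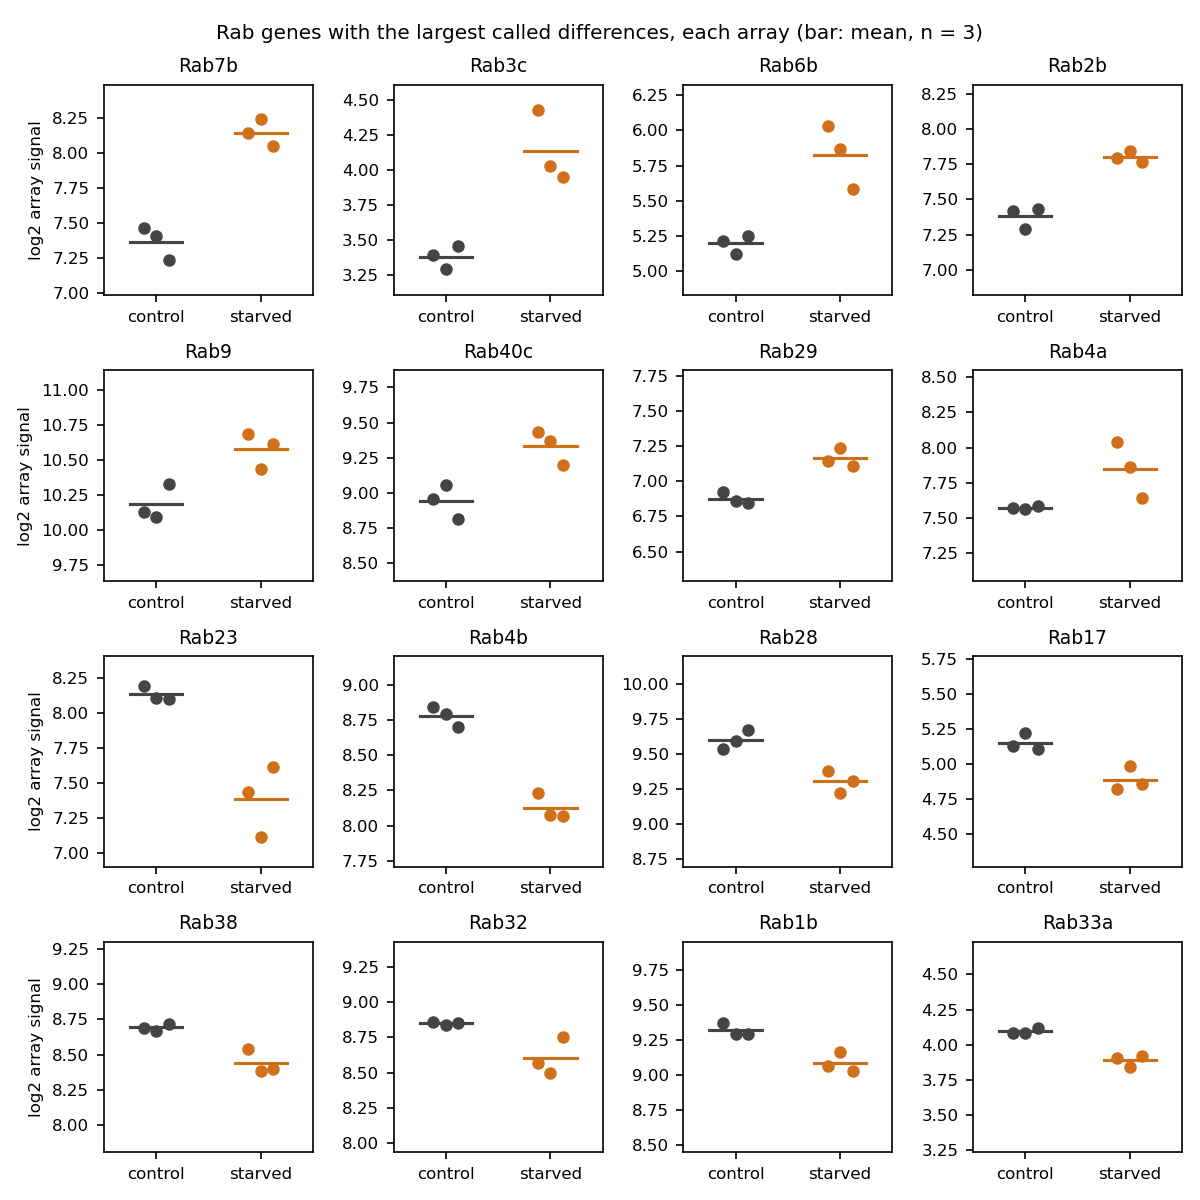
Log2 array signal (y axis, each panel spanning 1.5 units) of the 8 Rabs with the largest rises and the 8 that fell, in each control and starved array, with bars for the mean of 3 arrays. In all 16 panels the starved points lie entirely above or entirely below the control points. The same holds for all 20 called Rabs, and the panels were picked by their calls, so this adds no support to them. Of the 8 rises shown, Rab2b, Rab9, Rab40c, Rab29 and Rab4a lie below 0 on poly-A.

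The 9 Rabs outside these classes held 2 rises, 4 falls and 3 that did not pass. The share called was 66.7%, against 44.1% of all genes. On poly-A 0 were higher and 7 lower, against 6.94% and 75.2% of all genes. On hybridization spike-ins 0 were higher and 6 lower, against 13.5% and 49.2%. Rab23 gave 8.19, 8.11 and 8.10 in the control arrays against 7.44, 7.12 and 7.61 in the starved ones. It fell 1.68-fold, the largest fall of the family (−0.74, SE 0.11, adjusted p = 0.000477), and its second probe set fell as well (−0.64, adjusted p = 0.000153). Rab28, a Rab linked to the cilium and the retina, gave 9.53, 9.59 and 9.67 in the control and 9.38, 9.22 and 9.31 in the starved arrays, without overlap (−0.29, SE 0.07, adjusted p = 0.00906).

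Rab32 and Rab38, which build lysosome-related organelles such as melanosomes, both fell. Rab32 gave 8.86, 8.84 and 8.85 in controls and 8.57, 8.50 and 8.75 after starvation. The controls were tightly grouped and all above the starved arrays (−0.24, SE 0.08, adjusted p = 0.0318), but the call was lost without any single array other than starved replicate 3 (adjusted p 0.0722 to 0.106). Rab38 gave 8.69, 8.67 and 8.72 in the control arrays against 8.54, 8.39 and 8.40 in the starved ones. It fell (−0.25, SE 0.07, adjusted p = 0.0166) and lost the call without control replicate 3 or starved replicate 2 (adjusted p 0.054 to 0.0595).

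Rab40c, a Rab that carries a box for recruiting a ubiquitin ligase, gave 8.96, 9.06 and 8.81 in the control and 9.43, 9.37 and 9.20 in the starved arrays. It rose (0.39, SE 0.09, adjusted p = 0.00552), with −0.034 on poly-A. Its dimmer probe set lay at 0.04 and did not pass. Rab29, which recruits the kinase Lrrk2 to the Golgi and lysosomes, gave 6.93, 6.86 and 6.84 in controls and 7.14, 7.24 and 7.11 after starvation. It rose too (0.29, SE 0.07, adjusted p = 0.00759; −0.14 on poly-A). Rab34 and Rab40b, at 0.14 and −0.13, did not pass.

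Among the autophagy-linked Rabs, a list that cuts across the classes, the direction depended on the scaling, as it did over all genes. Of 15 measured members 3 rose on the deposited scaling (Rab9, Rab2a and Rab8b, each below 0 on poly-A), 2 fell (Rab32 and Rab1b) and 10 did not pass, so that 33.3% were called against 44.1% of all genes. The count was 0 higher and 12 lower on poly-A, 0 and 8 on hybridization spike-ins, and 1 and 4 with the mean of probe sets, which puts Rab2a at −0.15. Of all genes 6.94% were higher and 75.2% lower on poly-A, and 13.5% and 49.2% on hybridization spike-ins. The median was −0.08, and none was called with a difference of at least 0.5. Rab24, a Rab found on autophagosomes, gave 9.22, 9.18 and 9.16 in the control arrays against 8.95, 9.13 and 8.94 in the starved ones. All starved values were lower than the controls, but the difference of −0.18, SE 0.08, adjusted p = 0.0818 did not pass. Rab33b, which binds Atg16l1 of the machinery that lipidates Atg8 proteins, gave 8.59, 8.54 and 8.55 in the control and 8.56, 8.49 and 8.66 in the starved arrays. The groups overlapped, and the 95% confidence interval of its difference was −0.15 to 0.17. The list counted 1 rise without control replicate 2. The falls were 0 without control replicate 1 or 2, and 1 without control replicate 3 or starved replicate 1 or 3.

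The E-box CACGTG, the site bound by TFEB and its relatives, which direct lysosomal and autophagy genes, and also by MYC and USF factors, was looked for in promoters of Rab genes. RefSeq promoters of build GRCm38.p6, from 250 bases before to 50 after a start site, were found for 42 of the 50 genes, and 54 start sites were searched. CACGTG reads the same on both strands. It occurred in 6 of these 54 promoters (11.1%), against 7.15% of all 32851 promoters in the table. The longer form TCACGTGA, which contains it, occurred in 3 (5.56%), against 0.974%. The genes were Rab20, Rab21, Rab23, Rab24, Rab27a and Rab5a, and the longer form lay in Rab21, Rab24 and Rab5a. Only Rab23 among the 6 passed the test. The promoters of the 3 genes with the longer form, and of Rab23 as the largest fall, are given 5′ to 3′ on the gene's strand, with each E-box in capitals.
Rab5a, chr17:53478984-53479283, plus strand: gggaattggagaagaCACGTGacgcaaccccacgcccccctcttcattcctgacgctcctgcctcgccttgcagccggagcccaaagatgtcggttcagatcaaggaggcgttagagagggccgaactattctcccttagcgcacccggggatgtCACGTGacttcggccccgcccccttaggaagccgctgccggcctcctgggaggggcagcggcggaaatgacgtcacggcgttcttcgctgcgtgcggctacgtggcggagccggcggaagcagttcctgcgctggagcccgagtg
Rab24, chr13:55321931-55322230, minus strand: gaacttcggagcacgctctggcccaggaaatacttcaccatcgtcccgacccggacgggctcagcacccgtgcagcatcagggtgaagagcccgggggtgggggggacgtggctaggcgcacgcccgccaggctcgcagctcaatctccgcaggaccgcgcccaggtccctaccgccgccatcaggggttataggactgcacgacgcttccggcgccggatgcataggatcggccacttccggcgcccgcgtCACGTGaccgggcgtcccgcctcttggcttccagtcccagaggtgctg
Rab21, chr10:115315542-115315841, minus strand: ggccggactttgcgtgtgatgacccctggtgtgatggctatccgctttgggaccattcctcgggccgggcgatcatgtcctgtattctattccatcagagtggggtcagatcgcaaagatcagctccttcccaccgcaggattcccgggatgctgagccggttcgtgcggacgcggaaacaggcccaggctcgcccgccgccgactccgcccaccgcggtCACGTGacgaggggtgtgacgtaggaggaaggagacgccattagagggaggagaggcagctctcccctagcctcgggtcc
Rab23, chr1:33719646-33719945, plus strand: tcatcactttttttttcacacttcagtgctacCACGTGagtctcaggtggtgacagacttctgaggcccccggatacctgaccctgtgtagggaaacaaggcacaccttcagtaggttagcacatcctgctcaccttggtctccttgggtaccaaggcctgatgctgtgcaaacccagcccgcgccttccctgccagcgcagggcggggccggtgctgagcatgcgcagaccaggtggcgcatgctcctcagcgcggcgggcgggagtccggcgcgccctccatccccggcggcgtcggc
Counted from the start site, with bases before it negative, Rab5a held 2 E-boxes, with first bases at −235 and −95, and the longer form was the one nearer to the start. The first base of the E-box was at −30 in Rab21, at 3 in Rab24 and at −218 in Rab23. The differences of these genes were 0.13 for Rab5a, −0.18 for Rab24, −0.07 for Rab21 and −0.74 for Rab23. Of these only that of Rab23 passed the test, and Rab5a lay at −0.29 on poly-A. A match of letters does not show binding.

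Pairs of related Rabs, chosen after values were seen, were set against each other within each array. Adding a constant to all log2 values of an array cannot move this measure, but processing that acts differently on bright and dim signals could. The groups did not overlap in 9 of 14 pairs, each with an exact two-sided permutation p of 0.1, the smallest that 3 arrays against 3 allow, and 0.156 after Benjamini-Hochberg adjustment over the 14 pairs. Rab4a minus Rab4b was −1.28, −1.23 and −1.12 in controls and −0.19, −0.21 and −0.43 after starvation. The gap was smaller in every starved array than in any control array, and changed by 0.93 on average. Rab7 minus Rab7b was 3.82, 3.88 and 4.05 in the control arrays against 3.31, 3.08 and 3.17 in the starved ones, a change of −0.73.

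Rab6a minus Rab6b changed by −0.69, from 4.54 ± 0.07 to 3.85 ± 0.23 (SD, n = 3). Rab3b minus Rab3c changed by −0.91, Rab40b minus Rab40c by −0.53 and Rab8a minus Rab8b by −0.40. Smaller separated changes were seen for Rab11a minus Rab11b (−0.26), Rab33a minus Rab33b (−0.22) and Rab2a minus Rab2b (−0.19). Each gene was represented by its brightest probe set. Dimmer probe sets differed between starved and control arrays by −1.08 for Rab11a, −0.44 for Rab1a and −0.36 to −0.07 for Rab2a. Others lay at −0.30 for Rab7, −0.15 for Rab8b, 0.01 for Rab40b and 0.04 for Rab40c. Those of Rab3c lay at 0.56 and −0.0054. Those of Rab7b (0.93), Rab4a (0.24), Rab6a (−0.17) and Rab2b (0.08 to 0.39) had the sign of the brightest. Rab3c and Rab33a lay below the lower quartile of signal. Pairs whose groups overlapped were Rab1a and Rab1b (0.06), Rab5a and Rab5c (0.03), Rab22a and Rab31 (0.06), Rab27a and Rab27b (−0.02) and Rab32 and Rab38 (0.01). Among single genes the groups did not overlap in 54.0%, and the same share over all pairs of genes was not computed. The permutation test cannot pass 0.05 in this design, so the separation is a description of these arrays. Every separated pair except Rab11a and Rab11b held a Rab called on its own, so the separations partly repeat those calls.

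**Figure D3:**
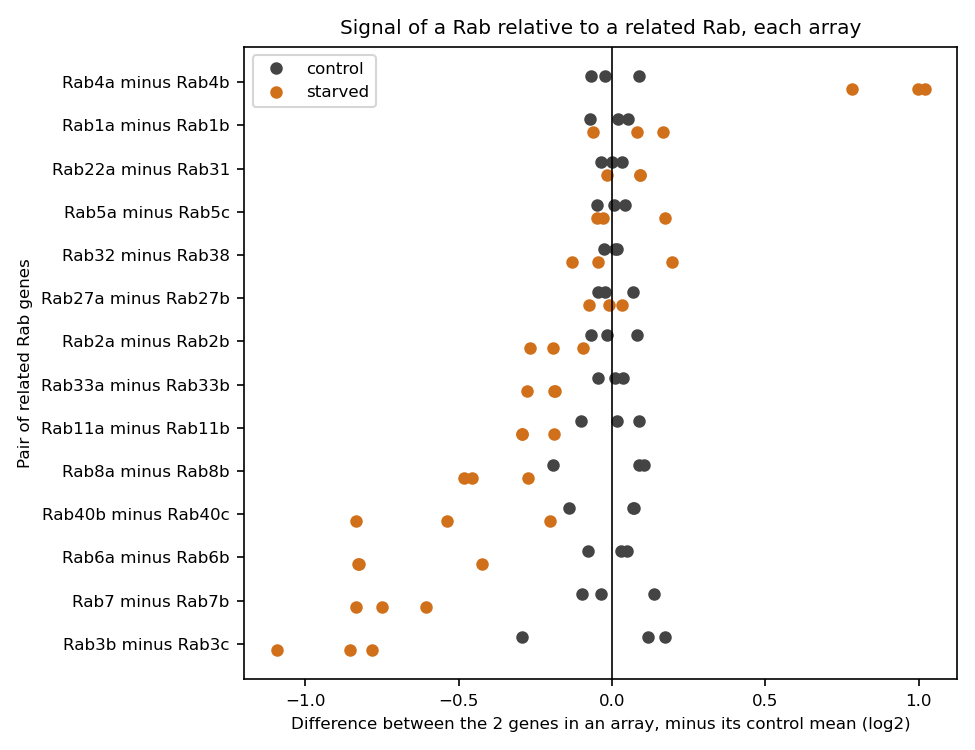
Difference in log2 signal between the genes of each of 14 pairs of related Rabs in each array, with the control mean of the pair subtracted (x axis). The pairs were chosen after values were seen. Control and starved points are separate in 9 pairs, furthest for Rab4a minus Rab4b (0.93) and Rab3b minus Rab3c (−0.91).

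The difference given for a Rab could depend on the probe set. Of the 27 Rabs with several probe sets 17 had all of them on the same side of 0 and 10 had them on both sides. When each probe set was tested on its own over 20380 probe sets, of which 40.9% were called, 17 Rab probe sets rose and 17 fell. Counted by gene, 11 Rabs had a probe set that rose and 16 one that fell. In 7 Rabs the brightest probe set did not pass while a dimmer one did. These counts by gene were not computed over all genes.

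The widest gap was in Rab11a, whose second probe set gave 8.45, 8.31 and 8.47 in the control and 7.34, 7.20 and 7.44 in the starved arrays. It fell by 1.08 (SE 0.09, adjusted p = 1.73e-05), more than any probe set used for a Rab gene, where the brightest lay at −0.08. Dimmer probe sets that fell were also found for Rab27a (−0.53), Rab21 (−0.47), Rab1a (−0.44), Rab31 (−0.35) and Rab7 (−0.30). Rab1a's second probe set gave 9.08, 9.02 and 9.17 in controls and 8.60, 8.63 and 8.72 after starvation, and Rab7's 10.21, 10.16 and 10.12 in the control arrays against 9.87, 9.68 and 10.04 in the starved ones. In both the starved arrays lay below the controls. Rab3d had a probe set that rose (0.33) and another that fell (−0.30), around a brightest one at 0.01.

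Rab2a, called higher by its brightest probe set, had 6 dimmer ones between −0.36 and −0.07, of which 1 was called lower. Its mean over probe sets was −0.15 and did not pass. The mean of the probe sets removed the calls of Rab17 (−0.07) and Rab8b (0.03), and Rab14 (0.11) and Rab4a (0.24) lost theirs without the probe sets that can bind several transcripts. Both probe sets of Rab7b rose (0.77 and 0.93) and both of Rab23 fell (−0.74 and −0.64). With the mean of probe sets the family counted 10 rises and 12 falls, and all genes 2618 and 2795. The secretory Rabs had 5 falls in place of 2, and the autophagy-linked Rabs 1 rise and 4 falls.

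**Figure D4:**
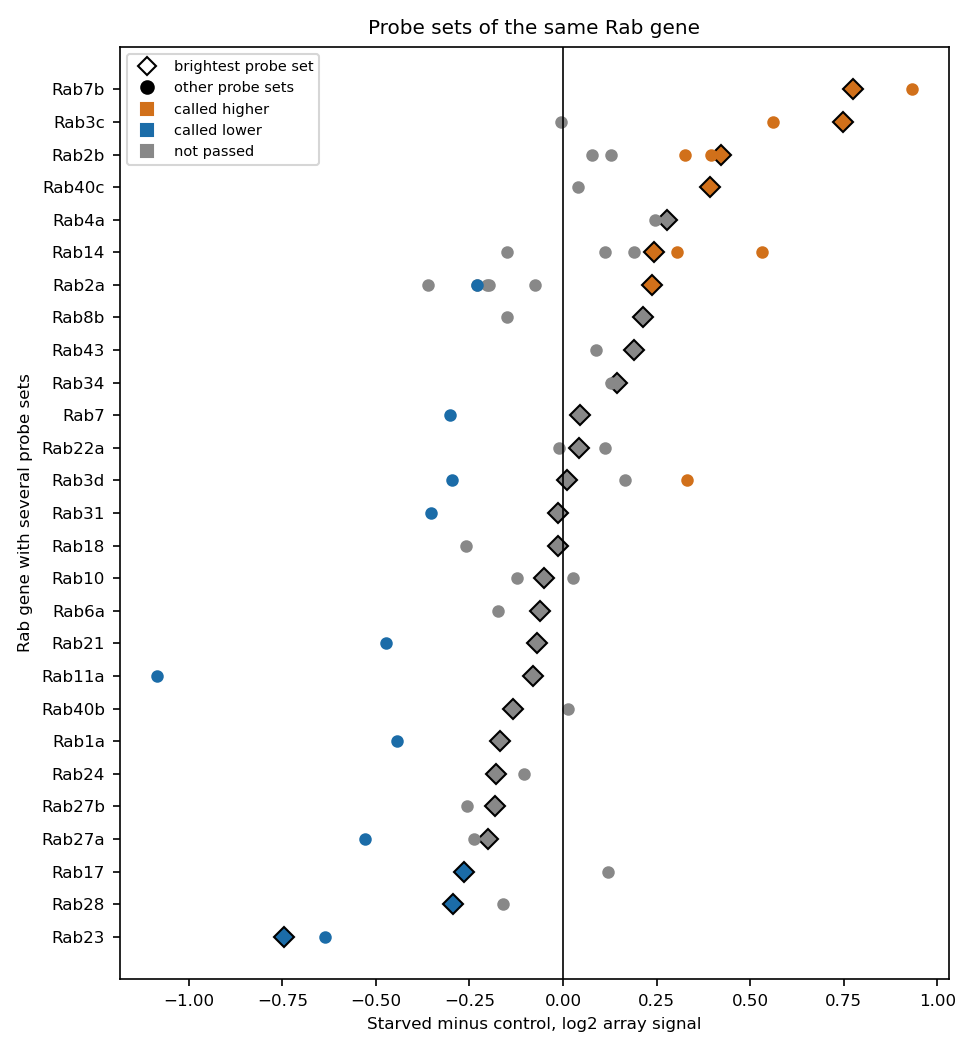
Starved minus control difference (log2, x axis) of every probe set of the 27 Rab genes with more than 1, with diamonds for the brightest and circles for the others. Orange marks probe sets called higher, blue those called lower and grey those that did not pass; the circle furthest to the left is the second probe set of Rab11a at −1.08.

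Of 157 listed partners, genes that load, switch and use Rabs, 93 were measured. On the deposited scaling 40 rose (43.0%, against 22.1% of all genes), 14 fell (15.1%, against 22.0%) and 39 did not pass. The median was 0.15, which became −0.28 on poly-A, where 7 were higher and 51 lower, and −0.04 on hybridization spike-ins, where 25 were higher and 31 lower. Of all genes 6.94% were higher and 75.2% lower on poly-A, and 13.5% and 49.2% on hybridization spike-ins. The same shares apply to the counts of each partner list below. Without control replicate 2 the falls numbered 9. Whether partners differed from Rabs was not tested.

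Of 8 genes for lipid attachment and recycling 4 rose (50%, against 22.1% of all genes), 1 fell (12.5%, against 22.0%) and 3 did not pass. The counts were 0 higher and 4 lower on poly-A, and 1 and 2 on hybridization spike-ins. Rabac1, a Golgi protein that releases Rabs from GDP dissociation inhibitor, rose from 10.25 ± 0.03 to 10.81 ± 0.14 (SD, n = 3) (0.55, SE 0.08, adjusted p = 0.000391; 0.13 on poly-A). Rabggtb, the beta subunit of the transferase, rose by 0.28 (−0.15 on poly-A), a call lost without control replicate 3 (adjusted p = 0.0577), and its alpha subunit Rabggta did not pass (−0.14, SE 0.08, adjusted p = 0.18). The escort protein Chm rose by 0.24 (−0.19 on poly-A), a call lost without control replicate 1 or 2 (adjusted p 0.0611 to 0.063). The dissociation inhibitor Gdi2 rose by 0.24 (−0.18 on poly-A), but the call was lost without control replicate 1 or 2 or starved replicate 2 (adjusted p 0.0621 to 0.0827) and when its probe sets were averaged (0.18). Rabif, a chaperone-like partner of secretory Rabs, fell by 0.41. Ggps1, which makes the geranylgeranyl lipid, had 1 low starved array among 7.35, 7.46 and 7.58 in the control and 6.72, 7.65 and 7.45 in the starved arrays and did not pass (−0.19, SE 0.20, adjusted p = 0.453).

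Of 30 exchange factors 8 rose (26.7%, against 22.1% of all genes), 6 fell (20%, against 22.0%) and 16 did not pass, shares near those of all genes. The counts were 1 higher and 22 lower on poly-A, and 6 and 15 on hybridization spike-ins. Dennd4c, an exchange factor for Rab10, rose from 8.15 ± 0.09 to 8.92 ± 0.12 (SD, n = 3) (0.78, SE 0.08, adjusted p = 4.99e-05; 0.35 on poly-A). Rab3ip, the exchange factor of Rab8, rose by 0.64 (0.22 on poly-A) and Rin2, an exchange factor of Rab5, by 0.59 (0.16 on poly-A). The falls with the smallest adjusted p were Trappc13 (−0.70), Trappc4 (−0.52) and Trappc5 (−0.38), subunits of the TRAPP complexes, which activate Rab1. Of the 10 TRAPP subunits measured, a group counted after values were seen, 4 fell and 6 did not pass, where 22.0% of all genes fell. For Trappc5 the second probe set rose by 0.38, so its direction depends on the probe set.

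Of 19 GTPase-activating proteins 11 rose (57.9%, against 22.1% of all genes), 2 fell (10.5%, against 22.0%) and 6 did not pass. The counts were 3 higher and 8 lower on poly-A, and 8 and 4 on hybridization spike-ins. Rabgap1l, which acts on endosomal Rab22a, gave 6.76, 6.72 and 6.71 in controls and 7.97, 8.10 and 8.24 after starvation. The starved arrays were all more than 1 above the controls (1.38, SE 0.08, adjusted p = 1.06e-06, 2.60-fold; 0.95 on poly-A). Tbc1d17, which acts on Rab8, rose 2.07-fold, from 7.94 ± 0.15 to 8.99 ± 0.17 (SD, n = 3) (1.05, SE 0.10, adjusted p = 2.98e-05; 0.62 on poly-A). Tbc1d23, which tethers vesicles at the trans-Golgi network, rose by 0.60 (0.17 on poly-A). Tbc1d14, which works with Rab11 in autophagosome formation, rose by 0.25, but lay at −0.17 on poly-A and at −0.04 without probe sets that can bind several transcripts. The falls were Sgsm3 (−0.42), which acts on Rab5, and Tbc1d13 (−0.25), a regulator of Rab35, whose call was lost without any single array other than starved replicate 2 (adjusted p 0.0506 to 0.0928).

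Of 36 effectors 17 rose (47.2%, against 22.1% of all genes), 5 fell (13.9%, against 22.0%) and 14 did not pass. The counts were 3 higher and 17 lower on poly-A, and 10 and 10 on hybridization spike-ins. Rab11fip5, an adaptor of Rab11 in recycling, gave 6.93, 6.79 and 6.84 in the control arrays against 8.31, 8.32 and 7.91 in the starved ones. It rose 2.51-fold (1.33, SE 0.11, adjusted p = 9.49e-06; 0.90 on poly-A). Lrrk1, a kinase that acts on Rab7, rose by 0.73 (0.31 on poly-A) and Ehbp1, which joins Rab8 and Rab10 to actin, by 0.66 (0.23 on poly-A). Fyco1, the adaptor that moves Rab7-bearing autophagosomes along microtubules, was named after its values were seen; it rose 2.02-fold, from 6.97 ± 0.16 to 7.98 ± 0.20 (SD, n = 3) (1.01, SE 0.12, adjusted p = 6.97e-05; 0.58 on poly-A).

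Eea1, the tether that Rab5 recruits to early endosomes, rose by 0.37 (−0.061 on poly-A), while Rabep2, another Rab5 effector, fell by 0.35. Vps18, a core subunit of the tethers of early and late endosomes, fell by 0.34. Other subunits of these tethers, named after their values were seen, rose on the deposited scaling, namely Vps16 (0.52, 0.089 on poly-A), Vps11 (0.38, −0.048 on poly-A) and Vps39 (0.31, −0.12 on poly-A), and Vps41 did not pass (0.033). The phosphoinositide phosphatase Inpp5b fell by 0.34. Atg16l1, the Rab33b partner, did not pass (−0.062, SE 0.08, adjusted p = 0.547).

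**Figure D5:**
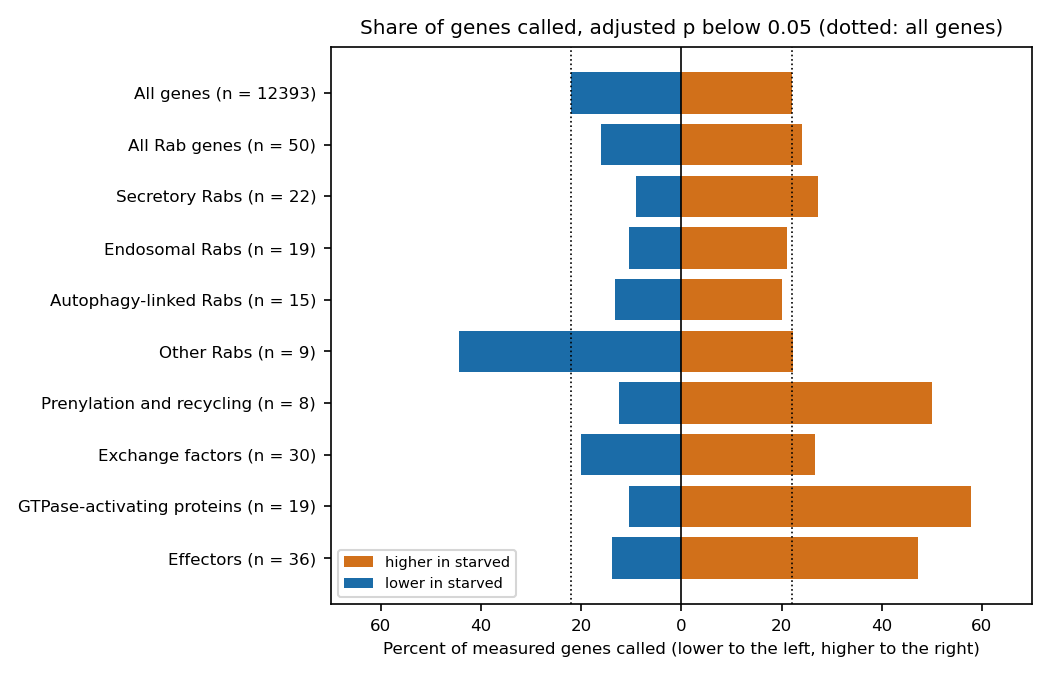
Percent of measured genes called higher (right) or lower (left) in starved arrays at an adjusted p below 0.05, for all genes, the Rab classes and the partner lists, with the number measured. Dotted lines mark all genes (22.1% and 22.0%); GTPase-activating proteins reach 57.9% higher, with a median difference of −0.17 on poly-A.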

How the data were processed

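The authors deposited log2 signals, made by RMA with the affy package per the submitters' processing notes (versions not given in the sources used here), for 22690 probe sets on 6 arrays. RMA subtracts background within an array and forces the arrays to like distributions, which can hide a shift shared by most genes. Genes were named from the platform annotation. Probe sets with 1 gene (20380) were kept, those with several (691), none listed (1555) and controls (64) were left out, and a gene took its brightest probe set over all arrays, giving 12393 genes with no filter on dim ones.

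Groups were compared with limma 3.58.1 (lmFit and eBayes, R 4.3.3), two-sided, with Benjamini-Hochberg adjustment over all genes. The number of arrays limits the precision. The fit was tested on simulated data. Differences between related Rabs were compared by exact permutation tests (scipy 1.17.1). Spike-in centring subtracted each array's mean over 24 poly-A or 18 hybridization probe sets. Alternatives were the mean of probe sets, no dim genes, the 3 centrings, a trended robust eBayes, a replicate block and each array left out. A threshold of 0.01 was tried too. Probe sets with the suffixes _x_at, _s_at and _a_at, which can bind several transcripts, were also left out.

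The members and lists were chosen with earlier results of these data known. Values in every array were given for the 8 called Rabs with the largest rises and the 8 with the largest falls and, whatever their values, for Rab1a, Rab2a, Rab5a, Rab5b, Rab5c, Rab7, Rab8a, Rab11a, Rab12, Rab24, Rab32 and Rab33b. From each partner list up to 3 risen and 3 fallen genes with the smallest adjusted p were named, with Gdi2, Chm, Rabggta, Rabggtb, Ggps1, Tbc1d14, Eea1 and Atg16l1. Tbc1d5 and Rilp were not analysed here. The pairs of related Rabs, the TRAPP group, the other GTPase families, other Rabs named by value, and the test of each probe set alone were chosen after values were seen. Of the single-gene probe sets 20351 had a symbol in RefSeq. Promoters came from RefSeq (GRCm38.p6) and were searched for exact letters.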

Additional observations from a re-analysis of the deposited data

How the results depend on the processing

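The counts of rising and falling Rabs depended most on scaling, and the cause was not tested. With poly-A centring the counts higher and lower were 860 and 9321 for all genes, 2 and 37 for Rabs, 1 and 16 for secretory, 1 and 14 for endosomal and 0 and 12 for autophagy-linked Rabs, and 7 and 51 for partners. With hybridization centring they were 1673 and 6102, 4 and 25, 3 and 12, 1 and 7, 0 and 8, and 25 and 31 in the same order. Median centring gave 3414 falls over all genes, 14 among Rabs, 7 among secretory and 5 among autophagy-linked ones. These were 2728, 8, 2 and 2 on the deposited scaling. At an adjusted p below 0.01 all genes counted 2149 rises and 1782 falls, and Rabs 7 and 3. Secretory Rabs counted 3 and 0, endosomal 2 and 1, autophagy-linked 1 and 0, and partners 34 and 9. Testing each probe set alone, chosen after seeing the data, gave 16 Rabs with a fall, a count not made over all genes. The mean of probe sets gave 5 secretory falls, and 1 rise and 4 falls among autophagy-linked Rabs. All genes had 2618 rises and 2795 falls with it. Without the dimmest 40% of genes the falls were 2205 over all genes left, 4 secretory, 1 endosomal and 5 autophagy-linked. A trended robust eBayes gave 5 autophagy-linked falls, and leaving out cross-binding probe sets gave 2 rises and 1 fall among the 15 endosomal Rabs left and 8 falls among the 77 partners left. Rab12, Rab15, Rab17, Rab23, Rab30 and Rab4b have only probe sets with the suffix _a_at. The falls of Rab23, Rab4b and Rab17 were therefore not measured again in that setting.

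Leaving out 1 array at a time, all genes had 2355 to 2753 rises and 2186 to 2735 falls. Rabs had 8 to 12 rises and 4 to 8 falls, and secretory Rabs 3 to 6 and 0 to 3. Endosomal Rabs had 2 to 4 and 1 to 3, and autophagy-linked Rabs 1 to 3 and 0 to 2. For partners the counts were 37 to 41 and 9 to 14. Of the 20 called Rabs 10 kept the call in all 6 such fits. The same share over all called genes was not computed. Signs also turned for Ggps1 (−0.38 to 0.082), Rab15 (−0.055 to 0.18), Rab18 (−0.056 to 0.048), Rab20 (−0.077 to 0.045), Rab31 (−0.050 to 0.013), Rab33b (−0.037 to 0.048), Rab3d (−0.048 to 0.098), Rab40b (−0.23 to 0.0029), Rab5b (−0.052 to 0.37) and Rab7 (−0.015 to 0.10), of which none was called.

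Poly-A centring turned 21 Rabs below 0, and 5 of the 28 partners singled out by the naming rule or after their values were seen: Rab11b −0.25, Rab13 −0.19, Rab14 −0.18, Rab15 −0.35, Rab20 −0.42, Rab22a −0.38, Rab29 −0.14, Rab2a −0.19, Rab2b −0.0032, Rab33b −0.42, Rab34 −0.28, Rab3d −0.41, Rab40c −0.034, Rab43 −0.24, Rab4a −0.15, Rab5a −0.29, Rab5b −0.31, Rab5c −0.33, Rab7 −0.38, Rab8b −0.21, Rab9 −0.032, Chm −0.19, Eea1 −0.061, Gdi2 −0.18, Rabggtb −0.15 and Tbc1d14 −0.17. Hybridization centring turned Rab11b −0.0092, Rab15 −0.12, Rab20 −0.18, Rab22a −0.14, Rab33b −0.18, Rab34 −0.044, Rab3d −0.18, Rab5a −0.055, Rab5b −0.068, Rab5c −0.087 and Rab7 −0.14, and median centring Rab20 −0.044, Rab22a −0.0046, Rab33b −0.039, Rab3d −0.036 and Rab7 −0.0028. The mean of probe sets turned Rab2a −0.15, Rab7 −0.13, Ggps1 0.0028 and Trappc5 0.0017, and leaving out cross-binding probe sets turned Tbc1d14 −0.044 and Trappc5 0.38.

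With the replicate number as a block, Rabs counted 12 rises and 8 falls, all 20 calls were kept, and all genes counted 2669 and 2605. The deviations of same-numbered arrays correlated at −0.0046, −0.022 and 0.0021, and control replicate 1 correlated best with starved replicate 2 (0.052), so the arrays share only a number. Rab3c, Rab33a and Rab27a lay below the lower quartile of signal, and how far low signal limits their differences was not measured.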

Other observations

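Other small GTPases on the same arrays, grouped by name after their values were seen, are given as values. Of 12 genes of the Arf, Arl and Sar1 group 3 rose, 5 fell and 4 did not pass (66.7% called, against 44.1% of all genes). Some members of the group recruit coats to budding vesicles. None of the 12 differed by 0.5 or more, against 18.4% of all genes. The extremes were Arf6, which works at the plasma membrane, at −0.40 (limma, adjusted p = 0.00113) and Arf3, a Golgi member, at 0.35 (adjusted p = 0.0084), which lay at −0.075 with poly-A centring.

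Of 10 Ras, Ral and Rap genes 3 rose, 1 fell and 6 did not pass (40% called, against 44.1%). The highest was Rras, a regulator of adhesion, at 1.30 (limma, adjusted p = 7.19e-07), which lay at 0.88 with poly-A centring. The difference of Rras was larger than that of any Rab.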
